A study of Homo sapiens with 27 samples.

Results

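The extracellular matrix is the protein mesh that fibroblasts lay down around themselves. Here 10 of its genes were followed through 5 states of one cell line: fibronectin (FN1), elastin (ELN), fibrillin 1 (FBN1), fibrillin 2 (FBN2), decorin (DCN), lumican (LUM), biglycan (BGN), versican (VCAN), osteonectin (SPARC) and tenascin C (TNC). They were chosen by name, as matrix glycoproteins and proteoglycans, and make up 10 of the 60534 gene IDs that all libraries share. The cells are IMR90, a line of wild-type human fetal lung fibroblasts that is not immortal, grown in DMEM with 10% serum. The mRNA level of each gene came from 13 RNA-seq libraries. Ribosome profiling (Ribo-seq), which sequences the mRNA fragments covered by ribosomes, gave its footprints in 14 libraries, and both kinds were taken from the same lysates. Cycling cells, untreated and at 40 to 60% confluency, had 2 RNA-seq and 3 Ribo-seq libraries. Quiescent cells, arrested by contact with their neighbours, had 3 of each. Cells made senescent by 15 Gy of ionizing radiation and harvested 10 days later (irradiated cells) had 3 of each. Cells made senescent by 3 treatments with 50 µM etoposide, a topoisomerase II poison that breaks DNA, over 10 days had 3 of each. Cycling cells given 25 nM thapsigargin, a blocker of the pump that fills the endoplasmic reticulum with calcium, for 3 h had 2 of each. Every state is thus the same cell line, and the labels do not say whether the libraries of a state come from separate cultures. The p-values below therefore measure the spread between libraries, which may be technical.

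All 10 proteins are made on ribosomes bound to the endoplasmic reticulum and leave the cell by the secretory pathway. Fibronectin assembles into fibrils that bind cells through integrins, and tenascin C and SPARC are matricellular proteins, which sit in the matrix and modulate how cells attach to it. Elastin gives tissues recoil and is laid down on microfibrils built of fibrillins, and in the lung such elastic fibres line the airspaces. Decorin, lumican and biglycan are small leucine-rich proteoglycans that bind collagen fibrils or growth factors, and versican is a large proteoglycan that binds hyaluronan. Senescent cells have stopped dividing for good and are known for a changed secretion of proteins. Thapsigargin stress is known to activate the PERK kinase, which dampens translation initiation, and the IRE1 nuclease, which cuts mRNAs at the endoplasmic reticulum.

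The stretch of DNA before each gene's start is shown for 4 of the genes: FN1 and TNC, whose mRNAs tracked each other most closely, and BGN and VCAN, whose footprints changed most. Sequences are from RefSeq (GRCh38.p14), which held a promoter entry for 7 of the 10 genes: FN1, FBN1, FBN2, BGN, VCAN, SPARC and TNC. Each line below gives the 250 bases before the start, 5' to 3' on the gene's strand. Capitals mark 6 motifs, searched on both strands: the GC box GGGCGG, the CCAAT box CCAAT, the cyclic AMP response element TGACGTCA, the TATA box TATAAA, the AP-1 site TGANTCA and the TEAD site GGAATG. The positions are chr2:215436069-215436318 (minus strand) for FN1, chr9:115118158-115118407 (minus strand) for TNC, chrX:153494730-153494979 (plus strand) for BGN and chr5:83471494-83471743 (plus strand) for VCAN.
FN1: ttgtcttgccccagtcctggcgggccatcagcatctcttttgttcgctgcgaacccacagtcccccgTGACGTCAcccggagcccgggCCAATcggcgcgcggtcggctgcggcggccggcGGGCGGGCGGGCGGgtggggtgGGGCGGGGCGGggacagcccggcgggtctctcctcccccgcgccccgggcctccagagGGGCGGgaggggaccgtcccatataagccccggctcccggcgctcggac
TNC: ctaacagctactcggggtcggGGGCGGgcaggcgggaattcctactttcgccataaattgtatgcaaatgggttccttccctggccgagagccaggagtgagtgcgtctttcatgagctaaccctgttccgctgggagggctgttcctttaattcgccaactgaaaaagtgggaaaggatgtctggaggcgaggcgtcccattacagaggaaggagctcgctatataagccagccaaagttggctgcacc
BGN: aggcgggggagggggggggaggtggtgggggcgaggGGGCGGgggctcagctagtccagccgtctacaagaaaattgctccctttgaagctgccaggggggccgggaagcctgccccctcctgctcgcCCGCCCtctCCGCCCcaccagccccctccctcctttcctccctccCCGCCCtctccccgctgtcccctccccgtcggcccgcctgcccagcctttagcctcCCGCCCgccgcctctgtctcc
VCAN: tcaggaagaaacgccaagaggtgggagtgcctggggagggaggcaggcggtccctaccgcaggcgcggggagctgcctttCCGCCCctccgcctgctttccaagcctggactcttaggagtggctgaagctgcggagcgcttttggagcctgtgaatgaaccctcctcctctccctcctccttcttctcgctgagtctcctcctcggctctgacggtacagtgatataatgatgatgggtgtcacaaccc

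FN1 was the one gene of the 7 with a match to the cyclic AMP response element, 183 bases before its start, and 2.32% of 15842 promoters of protein-coding genes of this length hold one. A GC box was found in 5 of the 7 (FN1, FBN2, BGN, VCAN and TNC) and in 56.0% of all promoters. FN1 and FBN2 held a CCAAT box (34.5% of all promoters), and FBN1 and SPARC a TEAD site (10.1%). The FBN1 window, chr15:48644971-48645220 (minus strand), lies inside the gene's span, which reaches 48645709, so it does not precede the outermost start. None of the 7 held TATAAA or TGANTCA in this window, which 9.23% and 5.04% of all promoters do. Near matches, such as the tataag in the FN1 and TNC sequences above, were not searched, so a TATA-like element is not excluded. Overlapping GC boxes in FN1 were counted separately. These promoters ranged from 54.8% GC in TNC to 76.4% in FN1, against a median of 62.4% over all promoters. A match is a match of letters only. The genes lie apart in the genome, on chromosomes 2, 5, 7, 9, 12, 15 and X, except that LUM and DCN are neighbours 29.0 kb apart on chromosome 12. LUM spans chr12:91102629-91111494 and DCN chr12:91140484-91182817.

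In units of 1e6, libraries held from 20.6 to 57.1 gene counts in RNA-seq and from 1.94 to 20.0 in Ribo-seq. All 10 genes passed the filter on low counts in both. They ranged from ELN, with as few as 90 counts in RNA and 1 in Ribo-seq, to FN1, with at least 53987 and 3106. FN1 alone took 0.132 to 0.632% of a library's gene counts in RNA and 0.159 to 1.74% in Ribo-seq. Levels are given below as CPM, counts per 1e6 gene counts after TMM scaling, which can be compared between libraries of one kind for one gene, but not between genes, whose lengths differ. The fibroblast label was met in RNA, with counts for 12 of 12 fibroblast markers, summed to 8281 to 13370 CPM per library. In Ribo-seq they summed to 12069 to 12664 CPM after thapsigargin, with TBX4 at 0, against 33675 to 35262 CPM in cycling cells. Smooth muscle markers, all 6 of them with counts, summed to 1446 to 3275 CPM in RNA. Immune markers summed to at most 1.66 CPM, epithelial markers to 0.310 to 17.7 CPM and endothelial markers to 5.22 to 81.7 CPM. RNA was measured in bulk, so fewer cells that express a gene and less of its RNA per cell cannot be told apart.

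One sample stood apart in these genes. Quiescent replicate 1 had the lowest level of the 3 quiescent libraries for 9 of the 10 genes in RNA (all but BGN) and for 10 of 10 in Ribo-seq. TNC, for example, was at 197 CPM in its RNA against 558 and 593 CPM in the other 2. In log2(CPM + 1), replicate 1 lay below the mean of replicates 2 and 3 by a median of -1.24 over the 10 genes in RNA and -1.62 in Ribo-seq. The medians over all genes tested were -0.0003 and -0.03, and TMM scaling tends to hold these near 0. It was the lowest library for 32.0% of all genes in RNA and 37.6% in Ribo-seq. Other matrix genes shared this, with replicate 1 lowest for 34 of 45 other matrix glycoproteins in RNA and 40 of 40 in Ribo-seq. So did matrix receptors, for 17 of 22 and 17 of 18. Fibroblast markers were lower in it too, by medians of -0.63 in RNA and -1.31 in Ribo-seq. Of all genes, 1.29% in RNA and 10.4% in Ribo-seq lay more than 1 below, beside 7 and 10 of the 10 genes. Its Ribo-seq TMM factor, at 1.13, was the highest of that assay. Its RNA-seq depth of 29.2, in units of 1e6 gene counts, was beside 28.7 and 25.8 in the other 2. Nothing in the labels sets it apart, and the comparisons of the 10 genes with quiescent cells are given below with and without it.

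**Figure D1:**
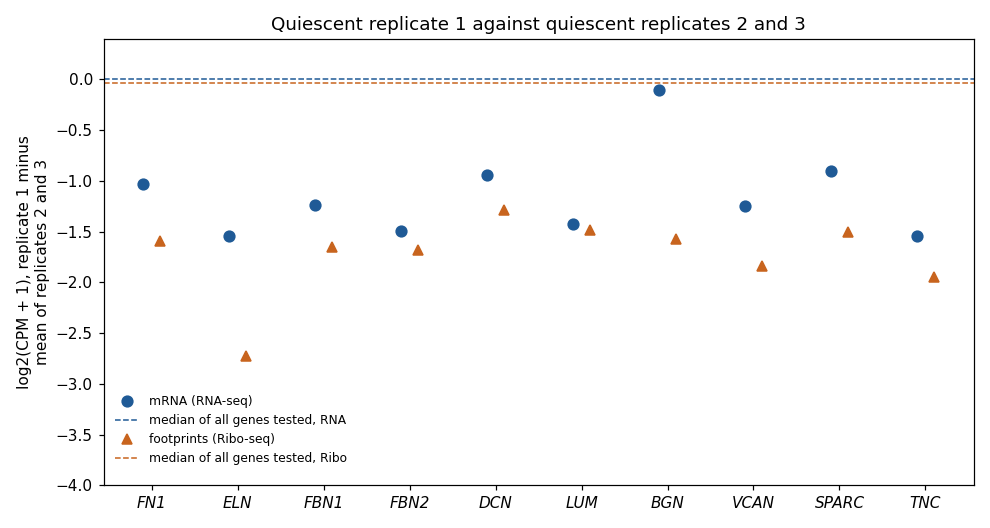
Difference between quiescent replicate 1 and the mean of quiescent replicates 2 and 3 for each of the 10 genes, in log2(CPM + 1); circles are RNA-seq, triangles Ribo-seq, and dashed lines the medians over all genes tested. All points lie below the dashed lines, from -0.10 (BGN in RNA) to -2.73 (ELN in Ribo-seq).

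The 10 genes did not share one pattern over the 5 states. What they had in common was a low in thapsigargin-treated cells, which had the lowest mean of the 5 states for 10 of 10 genes in RNA and for 9 of 10 in Ribo-seq, the exception being SPARC. The share of all genes with their lowest mean in that state was not counted. The highest state differed by gene. In RNA it was the quiescent state for FN1, ELN, BGN and TNC, the etoposide-treated state for FBN1, FBN2, DCN, LUM and VCAN, and the cycling state for SPARC.

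Fibronectin mRNA stood at 3452 and 4638 CPM in the cycling libraries and at 3214, 6573 and 6550.4 CPM in the quiescent ones. It was at 2909, 2981 and 2832 CPM in irradiated, 3269, 3396 and 3811 CPM in etoposide-treated, and 1317 and 1676 CPM in thapsigargin-treated cells. The cycling, quiescent and etoposide-treated libraries overlapped, the irradiated ones lay below them and the thapsigargin ones below all others. Its footprints had the same order: 7152, 9629 and 9385 CPM in cycling, 5208, 13800.3 and 17758 in quiescent, 8726, 8482 and 8539.8 in etoposide-treated, 3839, 4891 and 3765 in irradiated, and 1693 in each of the thapsigargin-treated libraries.

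Tenascin C mRNA was at 244 and 342 CPM in cycling cells, 197, 558 and 593 CPM in quiescent cells, and 59.8 and 82.2 CPM after thapsigargin. Both senescent states lay between, at 169, 160.2 and 179 CPM (irradiated) and 182, 147 and 195 CPM (etoposide), and overlapped each other. Its footprints ran from 121 and 189 CPM after thapsigargin to 535, 1684 and 2522 CPM in quiescent cells. SPARC mRNA was highest in cycling cells, at 2186 and 2090.4 CPM. The etoposide-treated libraries, at 1580.1, 1925 and 1607 CPM, lay below them without overlap. Quiescent libraries were at 809.8, 1377 and 1664 CPM, irradiated ones at 887, 1065 and 974 CPM, and thapsigargin ones at 691 and 762 CPM. SPARC was the one gene here with its highest level in cycling cells in both RNA and Ribo-seq.

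Among the elastic fibre genes, elastin was scarce. Its mRNA was at 9.45 and 10.3 CPM in cycling, 9.05, 24.3 and 32.9 CPM in quiescent, 8.42, 9.03 and 12.0 CPM in irradiated, 3.50, 4.04 and 4.58 CPM in etoposide-treated, and 2.20 and 5.38 CPM in thapsigargin-treated cells. The etoposide and thapsigargin libraries thus lay below all others. FBN1 mRNA, which encodes the main microfibril protein of adult tissue, ranged from 129.8 CPM after thapsigargin to 461 CPM in quiescence. FBN2 encodes the fibrillin that predominates in development, and its mRNA was at 219, 214 and 217 CPM in the etoposide-treated libraries, above the 35.3 to 136 CPM of all the others.

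Of the small leucine-rich proteoglycans, DCN and LUM were highest after etoposide and BGN was not. LUM mRNA was at 66.9 and 77.2 CPM in cycling, 50.3, 114 and 164 CPM in quiescent, 139.6, 149 and 157 CPM in irradiated, and 346, 262 and 257 CPM in etoposide-treated cells. After thapsigargin it fell to 29.1 and 19.6 CPM. Both senescent states lay above cycling cells without overlap, and the etoposide-treated state above the irradiated one. DCN mRNA ranged from 227 to 1123 CPM and likewise had all 3 etoposide-treated libraries above all others. BGN mRNA was at 36.3 and 64.1 CPM in cycling, 63.2, 88.5 and 52.2 CPM in quiescent, 36.8, 25.7 and 33.7 CPM in irradiated, 9.75, 9.88 and 16.1 CPM in etoposide-treated, and 5.61 and 13.4 CPM in thapsigargin-treated cells. VCAN mRNA stood at 139 and 186 CPM in cycling, 98.3, 228 and 243 CPM in quiescent, 104, 92.5 and 123 CPM in irradiated, 237, 223 and 257 CPM in etoposide-treated, and 66.8 and 76.7 CPM in thapsigargin-treated cells. The irradiated VCAN libraries lay below the cycling ones and the etoposide-treated ones above them.

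**Figure D2:**
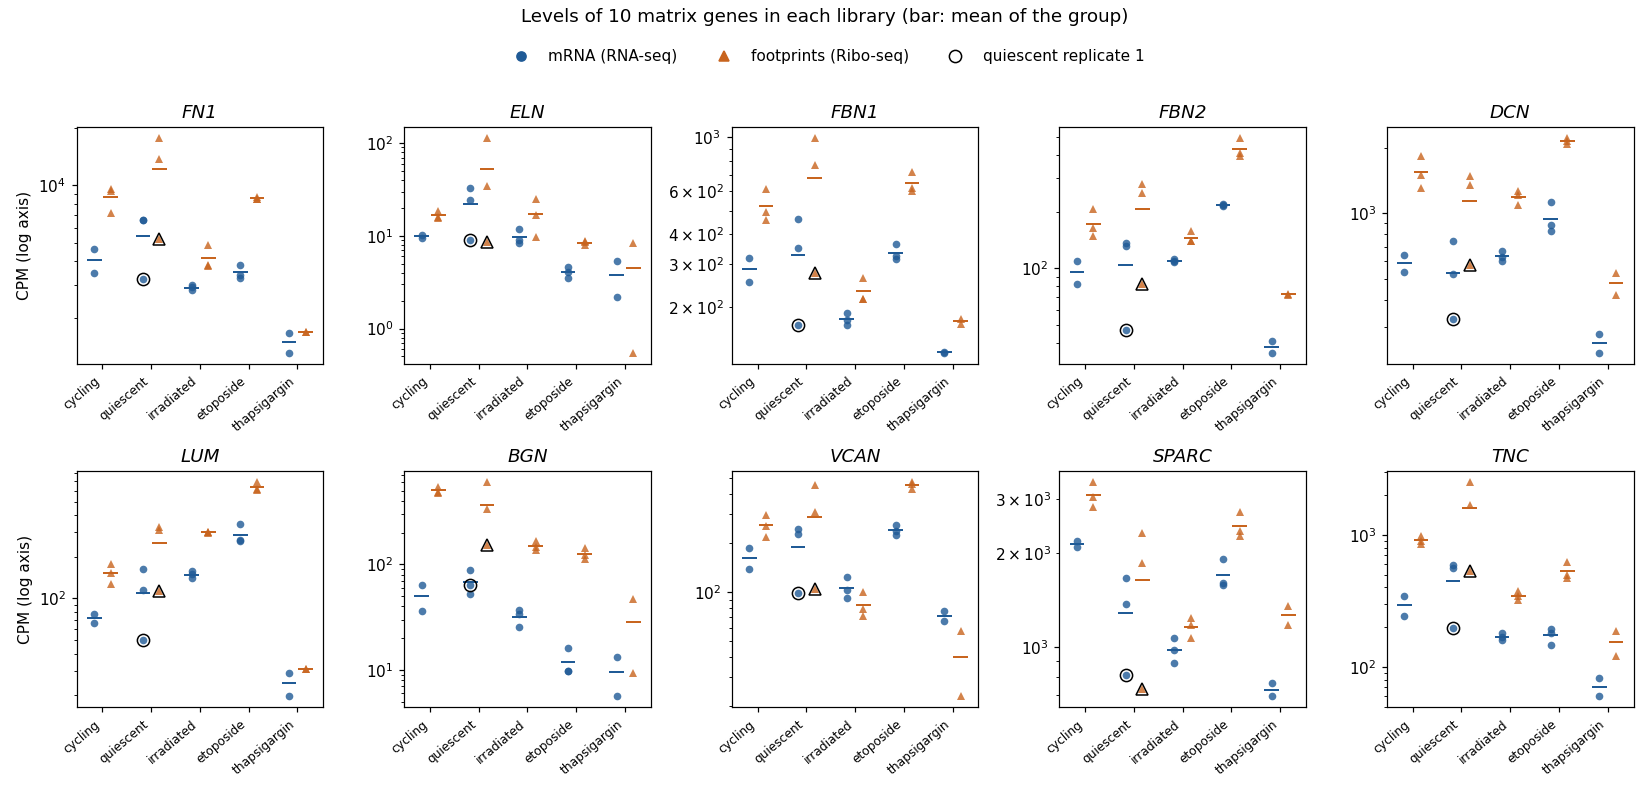
Level of each gene in each library, in CPM on a log axis, by state; circles are RNA-seq, triangles Ribo-seq, short bars the mean of each group, and a ring or outlined triangle marks quiescent replicate 1. Thapsigargin-treated cells have the lowest mean in every panel except for SPARC footprints, and FBN2, DCN and LUM peak after etoposide while BGN and ELN are low there.

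A gene may be placed by the gene whose mRNA tracks it most closely over the 13 RNA-seq libraries, by Pearson r of log2(CPM + 1). Among all 13291 genes tested, FN1 and TNC were each other's closest match, at r = 0.97. FBN1 was closest to LTBP1 (r = 0.99), which encodes a protein of the same microfibrils that holds latent TGF-beta. The closest genes of the others were TLE2 for ELN, ABCA8 for FBN2, RECK for DCN, USP46 for LUM, BNC2 for BGN, ROBO1 for VCAN and P4HA2 for SPARC, at r from 0.93 to 0.98. P4HA2 encodes a prolyl hydroxylase that modifies collagen. The neighbouring genes LUM and DCN had an r of 0.96, while the related proteoglycans LUM and BGN had an r of 0.0028. These values describe 13 libraries that share states and scaling, and a few libraries that differ in many genes can set them.

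Changes between states were tested with edgeR's quasi-likelihood test over all genes at once, and a gene was called changed at a Benjamini-Hochberg adjusted p under 0.05. The 4 comparisons with cycling cells share the cycling libraries, so they are not independent of each other. Changes are log2 fold changes ± SE, the first state named minus the second.

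Thapsigargin gave the broadest change. After 3 h, 9 of the 10 mRNAs had fallen, as had the footprints of 9 of 10, and none had risen. ELN was the exception in both, at -1.37 ± 0.48 in RNA (edgeR adjusted p = 0.0554) and -1.88 ± 1.12 in Ribo-seq (adjusted p = 0.189). Of all genes tested, 24.5% were called in RNA and 44.4% in Ribo-seq. The median change of the 10 genes was -1.40 in RNA and -2.09 in footprints, beside -0.03 and -0.11 over all genes. All 10 had thapsigargin-treated and cycling libraries that did not overlap, in RNA and in Ribo-seq, a trait whose share over all genes was not counted.

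The 2 largest falls in footprints were those of the proteoglycans BGN and VCAN. BGN mRNA fell by 2.39 ± 0.41 on the log2 scale (edgeR adjusted p = 0.00103). Its footprints went from 487, 474 and 545 CPM in cycling cells to 9.27 and 47.5 CPM, a log2 change of -4.13 ± 0.59 (adjusted p = 0.000125). The lower of these rests on 17 counts and the other on 91, and leaving out libraries in turn gave log2 changes from -5.74 to -3.42. VCAN footprints went from 218, 296 and 255 CPM to 22.9 and 57.4 CPM, or 42 and 110 counts. That is a change of -2.67 ± 0.52 in Ribo-seq (adjusted p = 0.00119), beside -1.18 ± 0.31 in RNA (adjusted p = 0.0153). Lumican changed by -1.57 ± 0.38 in RNA and -2.30 ± 0.38 in footprints, and decorin by -1.22 ± 0.28 and -1.70 ± 0.30.

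Among the adhesive glycoproteins, FN1 changed by -1.43 ± 0.27 in RNA (edgeR adjusted p = 0.00221) and by -2.37 ± 0.37 in footprints (adjusted p = 0.000222). TNC changed by -2.05 ± 0.38 in RNA and -2.56 ± 0.46 in footprints. SPARC was the one gene besides FBN2 whose estimated fall was smaller in footprints than in RNA, at -1.29 ± 0.32 against -1.56 ± 0.25. Of the microfibril genes, FBN1 changed by -1.14 ± 0.31 in RNA and -1.57 ± 0.37 in footprints, and FBN2 by -1.33 ± 0.35 and -1.25 ± 0.39. Leaving out cycling RNA-seq replicate 2 lowered the number of mRNAs called from 9 to 4 (FN1, BGN, SPARC and TNC). Other things moved with the treatment: the labels give these cells a medium without the antibiotics listed for the others, unmapped reads were 1.35 and 1.40% in their RNA-seq against 27.8 to 40.6% elsewhere, and epithelial markers summed to 14.4 and 17.7 CPM in their RNA against at most 2.94 CPM in the others. In their Ribo-seq, reads mapping to several places were 65.2 and 66.9% against 19.8 to 31.9% elsewhere, and depth was 1.94 and 2.04, in units of 1e6 gene counts, the lowest of all. Fibroblast markers in Ribo-seq were low there too, at the values given above, and smooth muscle markers summed to 1446 and 1455 CPM in RNA. Of the 8 epithelial markers 4 had counts, and SFTPC, SFTPB, NKX2-1 and KRT5 were at 0. Their Ribo-seq counts also follow another gene list than those of the other Ribo-seq libraries, with 62703 IDs against 60664. Treatment and batch cannot be told apart here, and the part of these differences in the changes was not tested.

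After radiation, more of the genes were called in footprints than in mRNA. In RNA, 2 of the 10 genes were called (34.9% of all genes): LUM rose by 1.05 ± 0.35 (edgeR adjusted p = 0.0323) and SPARC fell by 1.13 ± 0.22 (adjusted p = 0.00122). In Ribo-seq, 7 were called (39.8% of all genes), with LUM higher by 0.98 ± 0.28 (adjusted p = 0.0127) and 6 lower. The 6 were FN1, FBN1, BGN, VCAN, SPARC and TNC. VCAN footprints were at 71.3, 99.7 and 78.2 CPM against 218, 296 and 255 CPM in cycling cells, a change of -1.63 ± 0.40 (adjusted p = 0.00534). BGN footprints were at 138, 166 and 145 CPM, lower by -1.75 ± 0.42 (adjusted p = 0.0046). SPARC, TNC, FBN1 and FN1 footprints changed by -1.41 ± 0.28, -1.39 ± 0.37, -1.16 ± 0.31 and -1.07 ± 0.30. In none of the 7 did irradiated and cycling footprints overlap, and neither did those of DCN, which was not called (adjusted p = 0.251). The share of all genes without such overlap was not counted. The 5 of these that were not called in RNA had mRNA changes from -0.79 (TNC) to -0.48 (FN1), with adjusted p from 0.0682 to 0.173. Cycling cells had 2 RNA-seq libraries against 3 in Ribo-seq. The RNA count was 4 with DESeq2, 4 with the replicate number as a block and 6 in a fit of only the groups compared. The same settings called 7, 7 and 8 in Ribo-seq. The main test of footprints relative to mRNA, given below, called none of the 10. ELN, FBN2 and DCN were called in neither, with changes from -0.38 to 0.20. Smooth muscle markers moved with radiation, summing to 2488 to 3119 CPM in RNA against 1877 to 2129 CPM in cycling cells, and to 7041 to 7827 against 4919 to 5370 CPM in Ribo-seq. Endothelial markers, with CLDN5 and TIE1 at 0, summed to 30.4 to 33.4 CPM in irradiated RNA against at most 23.1 CPM in cycling RNA. In Ribo-seq they overlapped, at 27.0 to 29.3 against 16.6 to 29.4 CPM. Fibroblast markers were lower, at 8900 to 9236 CPM in irradiated RNA against 9424 to 13370 CPM in cycling RNA. In Ribo-seq they summed to 21171 to 23502 against 33675 to 35262 CPM. The part of these markers in these changes was not tested. The LUM mRNA call was lost on leaving out any 1 of the 5 libraries compared, with values from 0.94 to 1.15 over all alternatives.

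After etoposide, genes were called in both directions, with LUM and FBN2 up and BGN down in both assays. In RNA, 4 of 10 were called (34.5% of all genes): FBN2 rose by 1.18 ± 0.32 (edgeR adjusted p = 0.012) and LUM by 2.00 ± 0.36 (adjusted p = 0.000851), while ELN fell by 1.29 ± 0.44 (adjusted p = 0.036) and BGN by 2.07 ± 0.35 (adjusted p = 0.000546). In Ribo-seq, 3 of 10 were called (34.0% of all genes): FBN2, LUM and BGN, in the same directions. LUM footprints were at 612, 604 and 696 CPM against 127, 177 and 152 CPM in cycling cells, higher by 2.07 ± 0.28 (adjusted p = 8.35e-05). FBN2 footprints were at 493, 411 and 394 CPM against 147, 205 and 163 CPM, higher by 1.33 ± 0.31 (adjusted p = 0.005). BGN footprints, at 123, 112 and 144 CPM, were lower by -1.99 ± 0.42 (adjusted p = 0.00239). FN1 footprints were at -0.02 ± 0.30 and not called. DCN, VCAN, SPARC and TNC were not called in either assay, and their libraries did not overlap with cycling ones. The share of all genes without such overlap was not counted. Endothelial markers, all 7 of them with counts, summed to 52.1 to 81.7 CPM in the RNA of these cells against at most 23.1 CPM in cycling cells. Fibroblast markers in Ribo-seq summed to 26816 to 29609 CPM against 33675 to 35262 CPM in cycling cells, while in RNA they overlapped. The part of these markers in these changes was not tested. Without cycling RNA-seq replicate 1, the RNA calls came to 2 (LUM and BGN), and the ELN call was lost without any 1 of the 5 libraries. A fit of only the groups compared called 8 of the 10 genes in RNA and 9 in Ribo-seq, so a missing call here does not show an unchanged gene.

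Quiescence called 1 gene in each assay when all libraries were used: SPARC, with changes of -0.74 ± 0.22 for mRNA (edgeR adjusted p = 0.0352) and -0.91 ± 0.28 for footprints (adjusted p = 0.0319). Of all genes, 15.6% were called in RNA and 21.7% in Ribo-seq. Smooth muscle markers summed to 2335 to 3275 CPM in quiescent RNA and to 5632 to 9528 CPM in Ribo-seq, above the cycling libraries in both. Their part in the changes was not tested. The SPARC call was lost without either cycling RNA-seq library, without quiescent RNA-seq replicate 2, and without any 1 of the 3 cycling Ribo-seq libraries. The values without quiescent replicate 1 are a description, since that library was singled out for its low levels of these same genes, and higher values without it follow from that choice. On that setting 8 of the 10 genes were called in RNA, 7 higher and SPARC lower, while the share of all genes called fell to 12.8%. In Ribo-seq 7 were called, 6 higher and SPARC lower, beside 18.2% of all genes. ELN was highest, at 1.53 in RNA and 2.15 in footprints, followed by TNC, at 0.97 and 1.21. LUM was higher by 0.95 and 1.06, FN1 by 0.70 and 0.86, FBN1 by 0.50 and 0.76, and FBN2 by 0.48 and 0.63. VCAN was called in RNA alone, at 0.54, and DCN and BGN in neither.

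**Figure D3:**
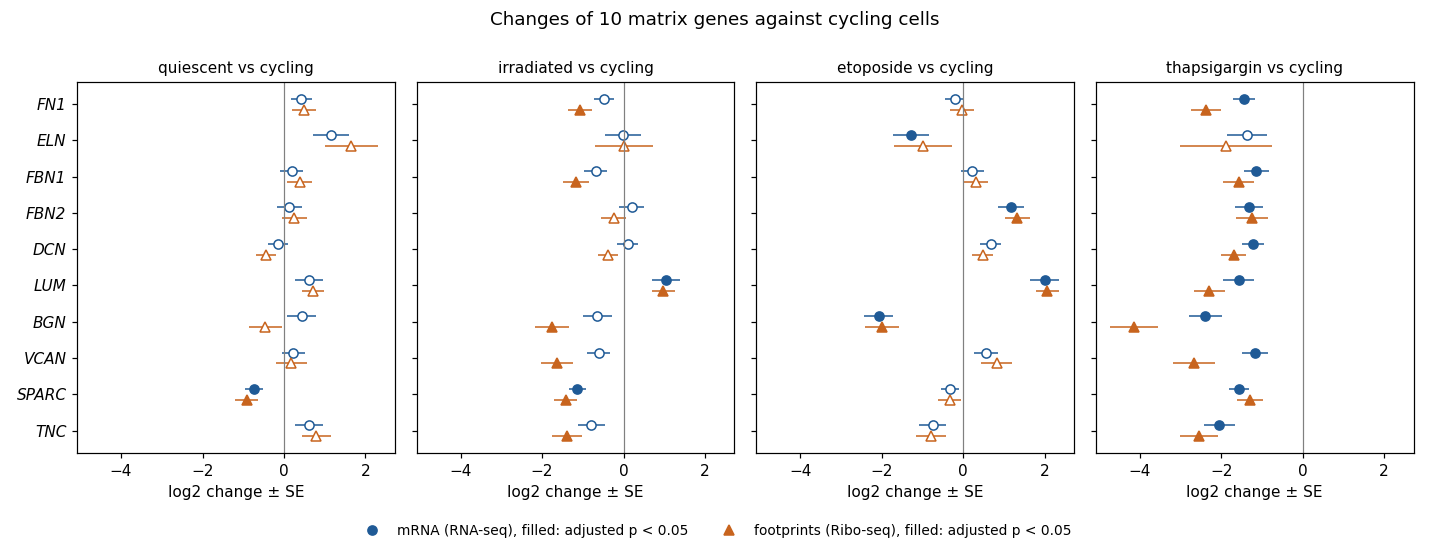
Log2 change of each gene against cycling cells, ± SE, in RNA-seq (circles) and Ribo-seq (triangles); filled symbols have an edgeR adjusted p under 0.05. After thapsigargin all points are below 0 and 9 of 10 are filled in each assay; after irradiation 7 triangles but 2 circles are filled.

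The arrested states were then compared with each other. Comparisons with quiescent cells set senescence against an arrest by contact, but the treatment and the contact between cells differ as well. These cannot be told apart from senescence here. Irradiated cells had lower mRNA than quiescent cells for 6 of 10 genes and higher for none (18.7% of all genes were called). These were TNC, at -1.41 ± 0.31 (edgeR adjusted p = 0.0066), ELN at -1.17 ± 0.38, BGN at -1.08 ± 0.32, FN1 at -0.91 ± 0.22, FBN1 at -0.87 ± 0.25 and VCAN at -0.83 ± 0.25. Their footprints were lower for 4 (14.5% of all genes): TNC by -2.19 ± 0.38 (adjusted p = 0.0016), VCAN by -1.81 ± 0.40, FN1 by -1.56 ± 0.30 and FBN1 by -1.54 ± 0.32. Without quiescent replicate 1, 7 mRNAs were called, SPARC being added (21.2% of all genes), and 8 footprints (20.4% of all genes), all lower. DCN and LUM were called under neither setting. The RNA calls of this comparison were fewer without quiescent replicate 2 (1, TNC), without quiescent replicate 3 (3), or without any 1 irradiated library (2).

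Etoposide-treated cells differed from quiescent cells in both directions. In RNA, 7 of 10 were called (41.7% of all genes), with LUM at 1.40 ± 0.31, FBN2 at 1.06 ± 0.28 and DCN at 0.82 ± 0.22 higher, and BGN at -2.51 ± 0.33, ELN at -2.44 ± 0.40, TNC at -1.37 ± 0.31 and FN1 at -0.64 ± 0.22 lower (edgeR adjusted p from 7.07e-05 for BGN to 0.0315 for FN1). In Ribo-seq, 6 were called (35.3% of all genes), the same ones without FN1. DCN footprints, for example, were at 2219.7, 2159.5 and 2089 CPM after etoposide against 577, 1345 and 1484 CPM in quiescence, higher by 0.93 ± 0.25 (adjusted p = 0.0113). Without quiescent replicate 1, the same 7 mRNAs were called (38.2% of all genes), and 8 footprints (31.8% of all genes), FN1 and FBN1 being added as lower.

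The senescent states differed from each other in most of the genes. In RNA, 7 of 10 were called (22.6% of all genes). ELN and BGN were higher after radiation, by 1.28 ± 0.40 and 1.43 ± 0.33, and FBN1, FBN2, LUM, VCAN and SPARC lower, by -0.91 ± 0.25, -0.98 ± 0.28, -0.96 ± 0.30, -1.17 ± 0.26 and -0.80 ± 0.20 (edgeR adjusted p from 0.00534 for VCAN to 0.0363 for LUM). In Ribo-seq, 7 were called (21.7% of all genes), and all 7 were lower in irradiated cells. VCAN showed the largest difference, with footprints at 71.3, 99.7 and 78.2 CPM after radiation and 476, 429 and 461 CPM after etoposide, a difference of -2.46 ± 0.41 (adjusted p = 0.00137). FBN2 differed by -1.58 ± 0.32, FBN1 by -1.48 ± 0.32, LUM by -1.09 ± 0.28, SPARC by -1.08 ± 0.28, FN1 by -1.04 ± 0.30 and DCN by -0.86 ± 0.25. BGN, lower after both inducers than in cycling cells, had footprints that overlapped between them, with a difference of 0.24 ± 0.41 (adjusted p = 0.752). The RNA count fell to between 2 and 5 genes when any 1 of the 6 libraries was left out. The Ribo-seq count was 4 without irradiated replicate 1 and 5 to 7 without another.

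**Figure D4:**
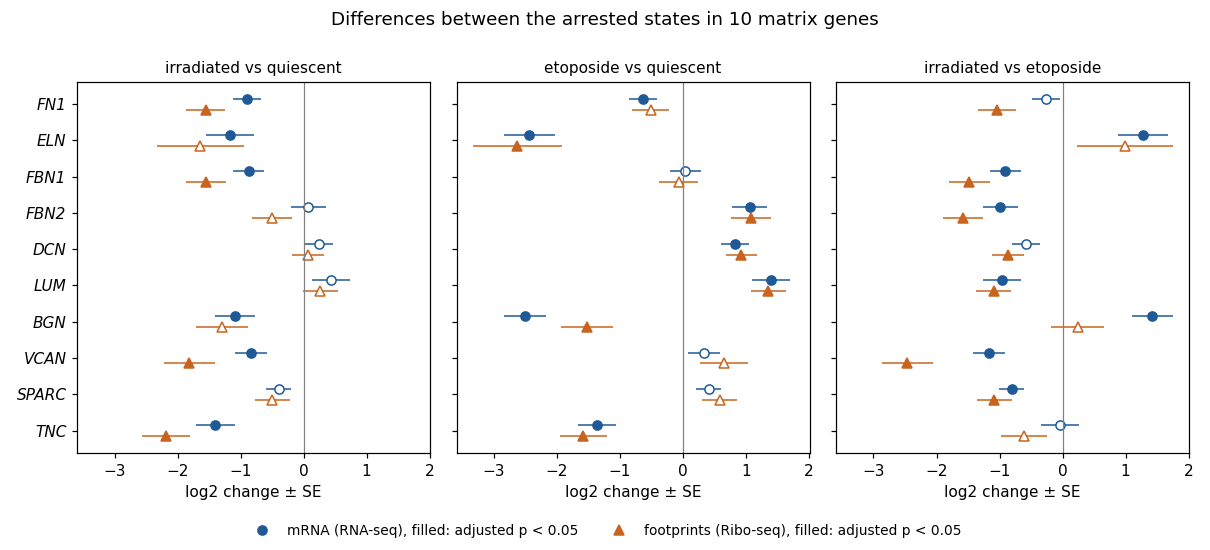
Log2 difference of each gene between the arrested states, ± SE, in RNA-seq (circles) and Ribo-seq (triangles); filled symbols have an edgeR adjusted p under 0.05. VCAN, FBN1 and FBN2 footprints are lower in irradiated than in etoposide-treated cells, while BGN and ELN mRNA are higher.

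Translational efficiency, the footprints of a gene relative to its mRNA, was tested by an interaction term in 1 fit to all 27 libraries. None of the 10 genes was called in any of the 7 comparisons with edgeR, in the fit without a block, or with DESeq2. The share of all genes called was 20.7% for thapsigargin against cycling cells, 0.0512% for irradiated, 0.0683% for etoposide-treated and 0.00854% for quiescent against cycling cells. It was 0.00854% for irradiated against quiescent, 0.162% for etoposide-treated against quiescent and 0% for irradiated against etoposide-treated cells. In the last of these, 770 genes had an unadjusted p under 0.05, 1 of them of the 10. Outside that comparison and thapsigargin against cycling cells, none of the 10 had an unadjusted p under 0.05. The SEs of these changes ran from 0.33 to 1.25, so a missing call does not show equal efficiency. Without quiescent replicate 1 in both assays, none of the 10 was called in the 3 comparisons with quiescent cells either, and 5 of them had an unadjusted p under 0.05 for irradiated against quiescent cells, at changes of -1.02 to -0.13 over the 10.

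After thapsigargin, the largest estimated changes of efficiency were those of BGN, at -1.77 ± 0.69 (edgeR adjusted p = 0.0688), VCAN, at -1.52 ± 0.59 (adjusted p = 0.0677), and FN1, at -0.96 ± 0.43 (adjusted p = 0.117). These 3 had an unadjusted p under 0.05. The median over the 10 genes was -0.54 and over all genes -0.15. A fit of the thapsigargin and cycling libraries alone called FN1 and VCAN. A fit with each same-numbered RNA-seq and Ribo-seq library of a state taken as 1 lysate called FN1, BGN and VCAN, but the labels do not say which libraries share a lysate. In irradiated cells, VCAN was at -0.91 ± 0.50 against cycling cells (adjusted p = 0.797) and at -1.13 ± 0.47 against etoposide-treated cells (adjusted p = 0.675). All 10 estimates after etoposide lay between -0.24 and 0.26. A fit of the compared groups alone called 3 genes for irradiated against cycling cells (BGN, VCAN and TNC, all lower) and 6 for irradiated against etoposide-treated cells (FN1, FBN1, FBN2, BGN, VCAN and TNC, all lower). The direct ratio of mean footprint CPM to mean mRNA CPM for VCAN was 1.58 in cycling, 1.53 in quiescent, 0.781 in irradiated, 1.91 in etoposide-treated and 0.560 in thapsigargin-treated cells. For BGN it was 10.0, 5.37, 4.67, 10.6 and 2.99. The counts behind RNA and Ribo-seq follow different gene lists outside the thapsigargin libraries, so such ratios can carry an offset per gene. In thapsigargin-treated cells both assays follow 1 list, so the offset may differ there and need not cancel against cycling cells. This holds for the footprint and efficiency changes after thapsigargin too.

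**Figure D5:**
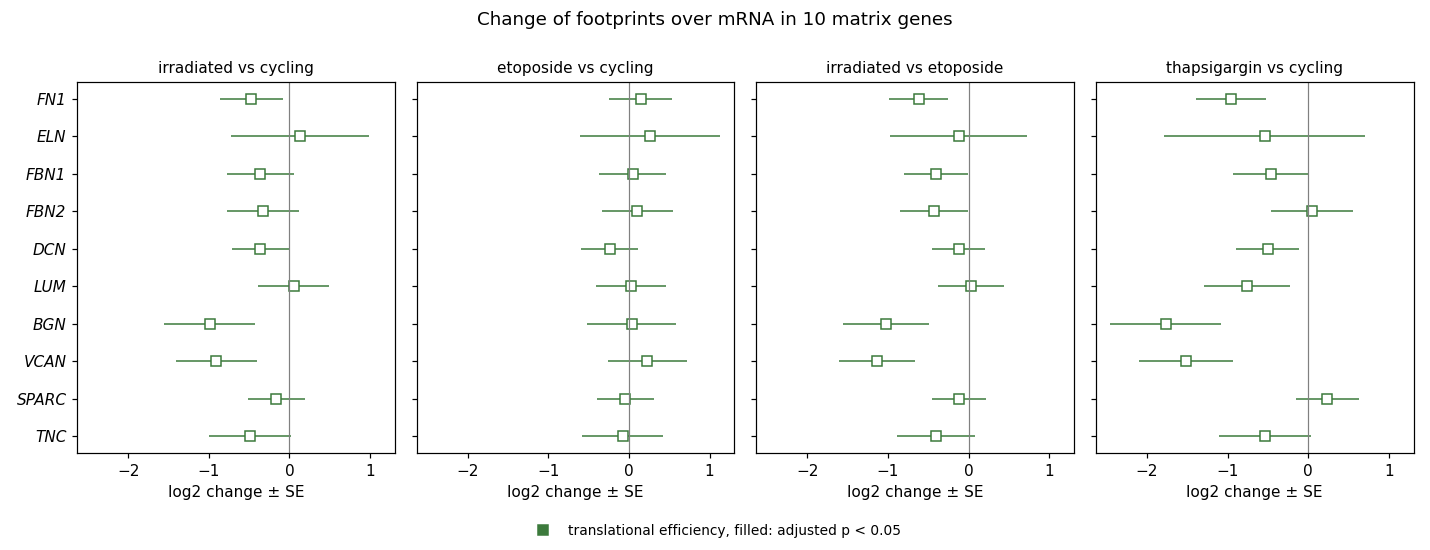
Log2 change of translational efficiency of each gene, ± SE, in 4 comparisons; no symbol is filled, since no edgeR adjusted p was under 0.05. The lowest estimates are those of BGN (-1.77) and VCAN (-1.52) after thapsigargin.

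The 10 genes were set beside other genes of the matrix. Of 46 other matrix glycoproteins (among them laminins, fibulins, thrombospondins and microfibril-associated proteins), 45 were tested in RNA and 40 in Ribo-seq. After thapsigargin, 1 rose and 21 fell in RNA, and in footprints none rose and 28 fell, with a median of -1.89. Of all genes, 11.7% rose and 12.8% fell in RNA and 20.0% rose and 24.4% fell in footprints. After radiation 4 rose and 15 fell in RNA, and 2 rose and 21 fell in footprints, where the shares over all genes were 16.2% higher and 18.8% lower in RNA and 17.2 and 22.6% in footprints. After etoposide 11 rose and 12 fell in RNA, and 8 rose and 7 fell in footprints, beside 16.8 and 17.8% of all genes in RNA and 16.4 and 17.6% in footprints. Between the senescent states, 21 of 40 footprints were lower in irradiated cells and none was higher (13.9 and 7.77% of all genes). In quiescence 2 rose and 3 fell in RNA, beside 5.18 and 10.4% of all genes. SVEP1, a large cell-adhesion protein, rose most, by 1.02 ± 0.28 (edgeR adjusted p = 0.0251), and by 1.24 ± 0.24 without quiescent replicate 1. Without that replicate, a setting chosen for these lists after seeing the data, 7 rose and 3 fell in RNA and 13 rose and 4 fell in footprints. Of all genes, 12.8% were then called in RNA and 18.2% in footprints, in either direction. The other genes with the largest rises and falls in this group had few counts, and no fold is given: FNDC1 had 40 counts in all irradiated and 48 in all thapsigargin-treated libraries against 2 in cycling ones, COMP 71 after etoposide against 1, SMOC1 4 after thapsigargin against 103, MFAP5 3 in quiescence against 21, and FBLN7 5 after radiation and 9 after etoposide against 18.

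Other proteoglycans numbered 29, of which 19 were tested in RNA and 15 in Ribo-seq. FMOD, which encodes fibromodulin, a collagen-binding relative of lumican, rose most in each arrested state. Its mRNA was at 1.56 ± 0.22 CPM (SD, n = 2) in cycling cells, 7.66 ± 2.65 CPM (n = 3) in quiescent, 16.2 ± 2.97 CPM in irradiated and 14.1 ± 3.20 CPM in etoposide-treated cells. The changes were 2.28 ± 0.36, 3.36 ± 0.37 and 3.16 ± 0.36 (edgeR adjusted p = 0.00136, 1.35e-05 and 1.96e-05), and its footprints rose in all 3 too. Without quiescent replicate 1 the change of FMOD mRNA in quiescence was 2.53 ± 0.31. The largest falls were those of SRGN (serglycin) in quiescence, at -2.25 ± 0.40 (-1.98 ± 0.41 without quiescent replicate 1), and of SDC1 (the cell-surface proteoglycan syndecan 1) after radiation, at -1.79 ± 0.25. OGN (osteoglycin) had 18 counts after etoposide and 6 after thapsigargin against 47 in cycling cells. CSPG4, a membrane proteoglycan, went opposite ways after thapsigargin, with mRNA higher by 1.06 ± 0.23 (adjusted p = 0.00574) and footprints lower by -1.72 ± 0.49 (adjusted p = 0.0122). In footprints against cycling cells, 1 rose and 11 fell after thapsigargin, beside 20.0 and 24.4% of all genes. After radiation 2 rose and 9 fell (17.2 and 22.6%), and after etoposide 3 and 4 (16.4 and 17.6%). In quiescence 1 rose and 6 fell (7.09 and 14.6%), or 2 and 5 of 14 without quiescent replicate 1 (18.2% called in either direction). Irradiated footprints were lower than etoposide-treated ones for 9 and higher for none (13.9 and 7.77%). Between etoposide-treated and quiescent cells, 10 of the 15 footprints tested were higher and 2 lower, beside 19.2 and 16.1% of all genes. Without quiescent replicate 1 the counts were 10 and 2 of 14, beside 31.8% of all genes called in either direction.

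The enzymes that build glycosaminoglycan chains (29 genes, 27 tested in RNA and 25 in Ribo-seq) fell in quiescence for 14 of 27 mRNAs. None rose in RNA, and 1 rose and 14 fell in footprints, with medians of -0.63 and -0.97. Of all genes, 5.18% rose and 10.4% fell in RNA, and 7.09% rose and 14.6% fell in footprints. Replicate 1 of the quiescent state was the lowest for 20 of 27 of these genes in RNA, and without it none rose and 13 fell in RNA and none rose and 11 fell in footprints. On that setting 12.8% of all genes were called in RNA and 18.2% in footprints, in either direction. After radiation 2 rose and 15 fell in both RNA and footprints, where 16.2 and 18.8% of all genes did in RNA and 17.2 and 22.6% in footprints. After etoposide 8 rose and 6 fell in RNA, beside 16.8 and 17.8% of all genes. Irradiated cells were lower than etoposide-treated ones for 17 of 27 mRNAs and 15 of 25 footprints, and higher for none, beside 12.9 and 13.9% of all genes lower. HAS2, which makes hyaluronan, the polymer that versican binds, fell from 42.2 ± 12.6 CPM (SD, n = 2) to 9.36 ± 1.00 CPM (n = 3) after radiation and 7.41 ± 1.57 CPM after etoposide, changes of -2.17 ± 0.25 and -2.52 ± 0.25 (edgeR adjusted p = 2.2e-05 and 5.66e-06). PAPSS2, which makes the sulfate donor for the chains, rose by 1.05 ± 0.14 and 1.65 ± 0.15 (adjusted p = 0.000103 and 1.97e-06). CHST7, a sulfotransferase, fell most in quiescence, at -1.35 ± 0.21, and was at -1.39 ± 0.24 without quiescent replicate 1. After thapsigargin 6 rose and 2 fell in RNA, beside 11.7 and 12.8% of all genes. CHSY3 rose most, by 1.34 ± 0.38, while its footprints were at -0.57 ± 0.85 and not called (adjusted p = 0.609). CSGALNACT1 fell most, with a change of -2.31 ± 0.52, and its footprints were at -0.72 ± 0.57 and not called (adjusted p = 0.323). Its cycling mRNA level was 12.0 ± 9.54 CPM (SD, n = 2).

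Receptors for matrix proteins (22 genes, mostly integrins, of which 22 were tested in RNA and 18 in Ribo-seq) fell more often than they rose after radiation, with 1 higher and 9 lower in RNA and none higher and 11 lower in footprints. Of all genes, 16.2% were higher and 18.8% lower in RNA, and 17.2 and 22.6% in footprints. After thapsigargin 12 footprints fell and none rose, beside 24.4% of all genes lower and 20.0% higher. HMMR, a hyaluronan-binding protein that also acts at the mitotic spindle, fell most in both senescent states, at -2.78 ± 0.25 after radiation and -3.56 ± 0.26 after etoposide (edgeR adjusted p = 2.8e-06 and 2.66e-07). DDR2, a collagen receptor, rose by 0.55 ± 0.18 after radiation (adjusted p = 0.026). ITGA9 had 55 counts after etoposide against 2 in cycling cells. In quiescence 5 fell and none rose in RNA, beside 10.4 and 5.18% of all genes. ITGA6 fell most, at -1.46 ± 0.26. Without quiescent replicate 1 the counts were 5 and 2, beside 12.8% of all genes called in either direction, and ITGA6 was at -1.17 ± 0.18. After thapsigargin ITGB8 changed by -1.98 ± 0.33 and ITGB5 rose by 0.87 ± 0.22 in RNA, while ITGB5 footprints were at -0.56 ± 0.42 and not called (adjusted p = 0.291). Between the senescent states, 13 of 18 receptor footprints were lower in irradiated cells and none was higher, beside 13.9 and 7.77% of all genes. In translational efficiency after thapsigargin, 10 of 40 other glycoproteins, 5 of 15 other proteoglycans, 5 of 25 of the chain-building genes and 8 of 18 receptors were called, all lower, while 12.9% of all genes were called lower.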

How the data were processed

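RNA-seq and Ribo-seq were analysed from the counts of reads per gene that the authors deposited, in the layout the aligner STAR writes, 1 file per library. The submitters' processing notes name STAR 2.7.10b, hg38, bcl2fastq and DESeq2 1.36.0, and the annotation release is not given in the sources used here. Per the labels' protocols, a stranded kit was used for RNA-seq and a small RNA kit for Ribo-seq, the latter on footprints of 25 to 40 nt cut from a gel. Counts on the reverse strand were therefore taken for RNA-seq, and those on the forward strand for Ribo-seq, and the opposite strand held 3.56 to 10.7% of the gene counts. Lines that name no gene (unmapped reads, 1.35 to 40.6% of a library's reads; reads mapping to several places, 9.43 to 66.9%) were left out. The deposited counts follow 2 gene lists, of 62703 IDs in 15 libraries and 60664 in 12 Ribo-seq libraries, and the 60534 shared IDs were used. Of these, 60461 had a symbol and 19306 were protein coding by RefSeq (GRCh38.p14).

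Protein-coding genes kept by filterByExpr (13291 in RNA, 11764 in Ribo-seq, 11713 in both) were fitted with edgeR 4.0.16 in R 4.3.3, with TMM scaling, robust quasi-likelihood F tests and all 5 states in each fit. P-values were two-sided and adjusted by the Benjamini-Hochberg method over all genes tested, with a threshold of 0.05. TMM scaling cannot show a change of all genes alike. The 10 genes, the 4 lists of other matrix genes and the cell type markers were chosen with earlier results of these data known. From each list, the called gene with the largest rise and the one with the largest fall in RNA against cycling cells were named, and so was the gene most like each of the 10. Alternatives were DESeq2 1.42.0, RLE size factors, no filter on low counts, all genes, counts without strand, only the groups compared, and the replicate number as a block. Each library was also left out in turn, in the comparisons that name its state.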

Additional observations from a re-analysis of the deposited data

Results flagged for a closer look

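In 6 cases the estimates for irradiated and etoposide-treated cells lay on opposite sides of cycling cells. The senescent states differed from each other in all 6 by edgeR's test of the difference itself. In none of the 6 were both estimates called against cycling cells. VCAN, the hyaluronan-binding proteoglycan, was lower after radiation and higher after etoposide, with a log2 difference between the senescent states of -1.17 in RNA and -2.46 in footprints. FBN1 differed likewise, by -0.91 in RNA and -1.48 in footprints. FBN2 and DCN did so in footprints alone, by -1.58 and -0.86. The effects against cycling cells share the cycling libraries, and of the 12 such effects 3 were called on their own: the falls of VCAN and FBN1 footprints after radiation and the rise of FBN2 footprints after etoposide. The DCN call was lost without any 1 irradiated library or without etoposide replicate 1 or 3, and the FBN1 call in RNA without irradiated replicate 1 or 2 or etoposide replicate 1.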

How the results depend on the processing

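Of 210 changes tested (10 genes in 21 comparisons), 73 were called, and 41 of those were called under every alternative run. In all, 128 were called under at least 1 setting, and 82 under none, 48 of which changed sign somewhere. Counts of genes called stayed within 1.5 times in 262 of 310 alternative settings. With DESeq2 the RNA count was 4 for irradiated and 2 for quiescent against cycling cells, and the Ribo-seq count 2 for quiescent against cycling cells. Without the filter on low counts, RNA counts were 1 (irradiated against cycling) and 3 (irradiated against quiescent), and the Ribo-seq count for quiescent against cycling was 0. Fitting only the groups compared gave RNA counts of 8 (etoposide against cycling), 6 (irradiated against cycling), 3 (irradiated against quiescent) and 0 (quiescent against cycling), Ribo-seq counts of 9 (etoposide against cycling), 2 (etoposide against quiescent) and 0 (quiescent against cycling), and efficiency counts of 3, 6 and 2 (irradiated against cycling, irradiated against etoposide, thapsigargin against cycling). RLE size factors moved no count past 1.5 times. Deviations of same-numbered libraries from their group means correlated over 0.1 in 10 of 23 pairs in RNA and 8 of 26 in Ribo-seq between states. With unlike numbers it was 17 of 44 and 6 of 52. For RNA-seq and Ribo-seq of one state it was 7 of 13 pairs, against 2 of 24 with unlike numbers. Same-numbered libraries of the 2 assays thus deviated together more often, but not throughout. In groups of 2 libraries the deviations mirror each other, so these counts cannot settle whether the numbers pair samples. The main fits did not pair by number. The replicate block gave 4 genes for irradiated against cycling cells in RNA and 1 for efficiency after thapsigargin, and pairing by lysate gave 3 there.

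Leaving out 1 library gave, in RNA, 2 to 3 genes for etoposide, 1 for irradiated, 0 to 8 for quiescent and 4 to 9 for thapsigargin against cycling cells, 1 to 7 for irradiated and 6 to 7 for etoposide against quiescent, and 2 to 5 for irradiated against etoposide. In Ribo-seq the ranges were 3 to 3, 6 to 7, 0 to 7, 7 to 9, 4 to 8, 5 to 8 and 4 to 7 in the same order, and for efficiency 0 to 2 after thapsigargin and 0 elsewhere. Among the changes called under some setting, those that changed sign on leaving out 1 library were, for quiescent against cycling cells, FBN2 RNA (-0.10 to 0.48), FBN1 RNA (-0.14 to 0.50) and FBN2 footprints (-0.025 to 0.63), each called without quiescent replicate 1 alone. So were FBN1 footprints for etoposide against quiescence, at -0.44 to 0.31, which also gave 0.017 with the replicate block. The cause of these moves was not tested. Where a group was left with 1 library, it was assumed to vary like the others. Depth limits ELN, BGN, LUM and VCAN footprints after thapsigargin, where libraries held 1 to 110 counts of each.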
